A study of Mus musculus with 3 samples.

Results

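The expression of 10 Wnt pathway genes was examined among the 36167 features measured in nuclei of the newborn mouse aortic valve. They are the ligands Wnt9b, Wnt4 and Wnt5a, the receptor-removing ligases Rnf43 and Znrf3, the response genes Axin2 and Lef1, the secreted antagonists Sfrp1 and Sfrp2, and the signal-enhancing R-spondin Rspo3. The genes were picked with their levels by class of nuclei already known from these data, with ligands placed in endothelium and responses in interstitium. Their differences between those classes are therefore given as a description, without a test. All 10 were found in the matrices, and all 10 had UMIs in both classes.

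Wnt proteins are secreted lipid-modified ligands that bind Frizzled receptors together with Lrp5 or Lrp6, and this binding stabilises beta-catenin, which enters the nucleus and acts with Tcf and Lef proteins on target genes. The response holds its own brakes, since Axin2 rebuilds the complex that destroys beta-catenin and Rnf43 and Znrf3 remove Frizzled from the cell surface, while R-spondins bound to Lgr receptors take these ligases away. In valve development the endothelium lining the leaflets and the interstitial cells within them are neighbours, and Wnt signalling is known there for its part in the growth and patterning of the cushions and leaflets.

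The study has 1 group of 3 pools of aortic valve structures from mouse pups at postnatal day 1, with 22 to 24 roots in each pool. Every pool carries the strain label B6.Cg-Scx<tm1.1(EGFP)Skom, in which EGFP sits at the locus of scleraxis (Scx), a transcription factor of tendon cells, and no pool without this change was available for comparison. Each pool mixes many pups, so its value is that of a mixture and the spread between pools is the only replicate error. Nuclei were read for RNA with the 10x Genomics Multiome kit, and values are counts of unique molecular identifiers (UMIs), each standing for 1 captured RNA molecule.

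Of 21140 deposited nuclei, 13130 with at least 1000 UMIs and at most 5% mitochondrial UMIs, and not marked as doublets, were used, and the pools' median UMI counts lay between 3346 and 4771. More than 5% mitochondrial UMIs were found in 28.6%, 41.8% and 14.1% of the deposited nuclei of pools 1, 2 and 3, so pool 2 lost the largest share. Pairs of pools had 44 to 99 deposited barcodes in common. The labels give no cell type per nucleus, so nuclei were clustered without the 10 genes and the other Wnt pathway genes, and clusters were named from marker lists. Endothelial-like nuclei numbered 2725 in 7 clusters, and valve interstitial-like nuclei 1454 in 2 clusters. The markers used for naming were at least 2-fold above the other classes for 11 of 12 endothelial genes in the former and 11 of 11 valve interstitial genes in the latter. Summed endothelial markers were 7472 to 7889 CPM (UMIs of a gene in a library of nuclei scaled to a total of 1000000) in endothelial-like nuclei against 738 to 780.0 CPM in valve interstitial-like nuclei. Summed cardiomyocyte markers, which belong in neither class, were 867 to 1327 CPM and 651 to 1144 CPM in the same order, and the part of such RNA in the results was not tested.

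Promoter sequences are shown for the 3 genes of the Wnt response that are described together below, because members of the Tcf and Lef family bind a short motif there. RefSeq windows of 250 bases before to 50 bases after a start site, on GRCm38.p6, were found for 6 of the 10 genes, in 10 windows. The motifs searched on both strands were AACAAAG, its variant TACAAAG, then ATCAAAG, and as the last of them TTCAAAG, of which no 2 can match at the same position. A match was present in 1 of the 10 windows, and in 16.9% of all 32851 windows of the table. Capitals mark that match, which lies in the window of 1 of 4 annotated Lef1 starts.
Lef1, chr3:131156044-131156343, plus strand: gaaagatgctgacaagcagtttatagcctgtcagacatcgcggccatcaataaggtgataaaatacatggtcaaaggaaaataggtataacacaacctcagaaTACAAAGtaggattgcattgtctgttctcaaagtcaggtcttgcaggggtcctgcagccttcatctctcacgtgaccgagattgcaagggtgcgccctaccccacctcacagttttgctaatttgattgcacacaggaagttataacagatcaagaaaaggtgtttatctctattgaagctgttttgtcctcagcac
Rnf43, chr11:87662837-87663136, plus strand: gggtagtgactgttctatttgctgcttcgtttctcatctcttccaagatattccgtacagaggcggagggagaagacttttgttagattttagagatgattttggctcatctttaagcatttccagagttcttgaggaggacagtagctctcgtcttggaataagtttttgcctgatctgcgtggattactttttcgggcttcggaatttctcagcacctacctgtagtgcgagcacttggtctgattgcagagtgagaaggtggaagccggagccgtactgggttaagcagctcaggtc
Axin2, chr11:108920099-108920398, plus strand: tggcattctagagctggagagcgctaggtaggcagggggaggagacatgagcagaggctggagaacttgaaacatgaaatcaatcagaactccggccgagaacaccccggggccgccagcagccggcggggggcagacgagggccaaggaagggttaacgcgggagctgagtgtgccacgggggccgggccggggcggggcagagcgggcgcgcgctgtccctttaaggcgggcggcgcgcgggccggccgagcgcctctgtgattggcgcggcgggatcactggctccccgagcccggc
No match in a window says only that these letters are not within it.

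In all, 8 of the 10 genes had a higher mean in valve interstitial-like nuclei and 2, the ligands Wnt9b and Wnt4, in endothelial-like nuclei. The pools of these classes did not overlap for 8 of the 10. Among all 13997 genes tested between these classes, the pools did not overlap for 46.6%, and edgeR's quasi-likelihood test called 40.7% at an adjusted p under 0.05. The genes were chosen on this contrast, so nothing is read from their count. Levels below are UMIs summed over the nuclei of a class in a pool, as CPM, and are compared across nuclei for 1 gene at a time, since gene length was not corrected for.

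**Figure D1:**
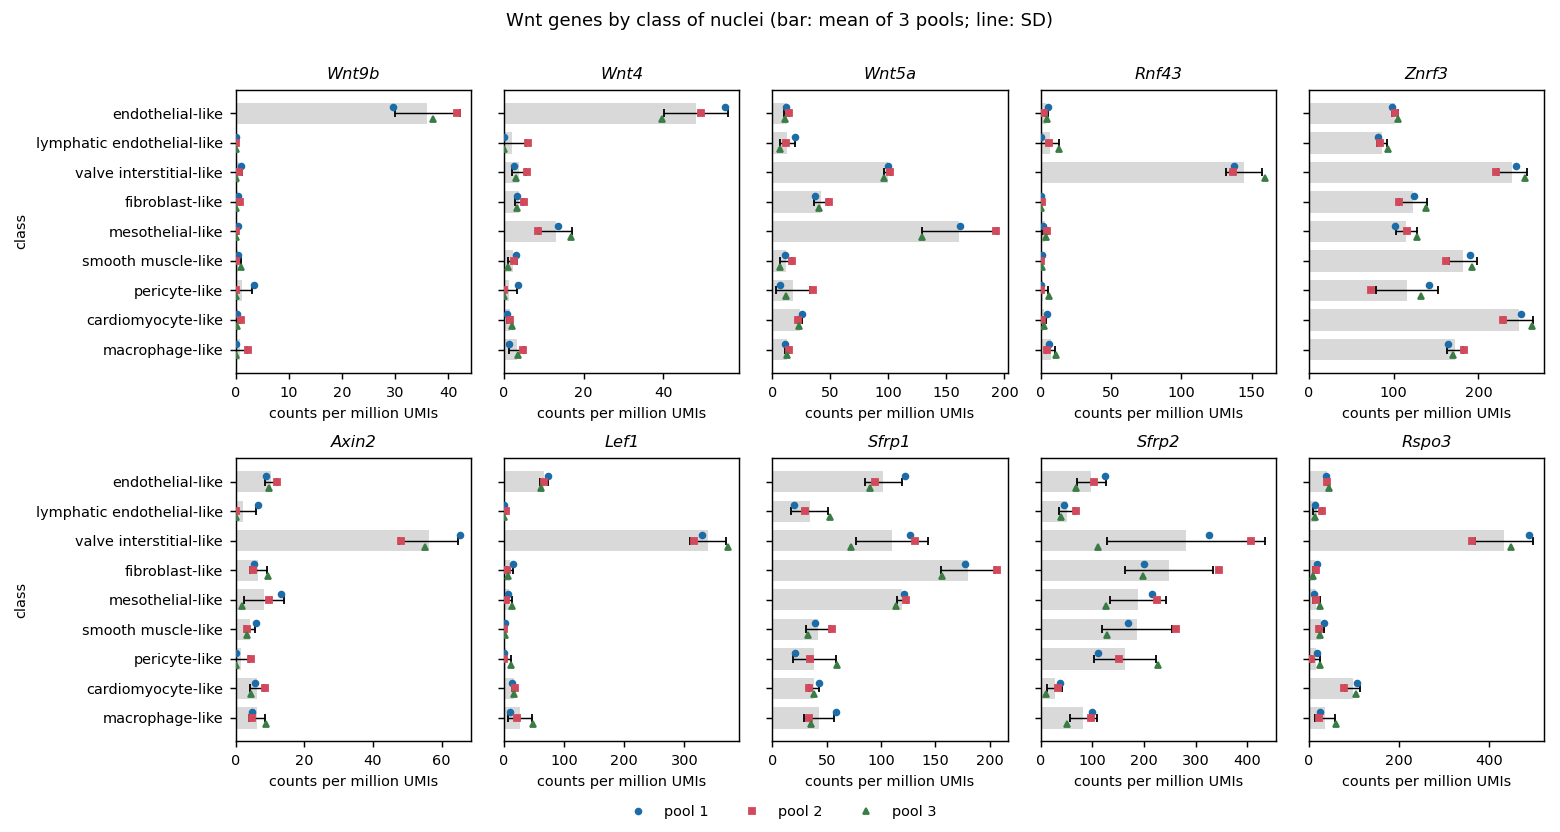
Each panel shows 1 gene, with CPM on a linear axis and the 9 classes of nuclei as rows; points are the 3 pools, bars their mean and lines the SD. Wnt9b and Wnt4 reach 36.1 and 48.3 CPM in endothelial-like nuclei, while Rnf43, Axin2, Lef1 and Rspo3 are highest in valve interstitial-like nuclei in every pool.

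Wnt9b, a ligand of the beta-catenin branch, was found almost wholly in endothelial-like nuclei among the 9 classes compared. Its level there was 29.5, 41.6 and 37.1 CPM in pools 1, 2 and 3, a mean of 36.1 ± 6.08 CPM (SD, n = 3 pools), from 502 UMIs. In valve interstitial-like nuclei it was 1.08, 0.635 and 0 CPM, from 4 UMIs in all. Endothelial-like nuclei held 96.0% of the Wnt9b UMIs of the 9 classes, and the next class, pericyte-like, had a mean of 1.15 ± 2.00 CPM. Lymphatic endothelial-like nuclei, the nearest class by marker genes, had 0 Wnt9b UMIs in every pool.

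Wnt4, a ligand best known from kidney and gonad development, was likewise highest in endothelial-like nuclei. It measured 55.7, 49.4 and 39.7 CPM in the endothelial-like nuclei of pools 1, 2 and 3 (48.3 ± 8.06 CPM), and 2.51, 5.71 and 3.11 CPM in valve interstitial-like nuclei. Mesothelial-like nuclei came second at 13.1 ± 4.12 CPM, below endothelial-like nuclei in every pool. The levels of both ligands depended on the mitochondrial limit, and without it their endothelial-like means were 66.7 CPM for Wnt9b and 101 CPM for Wnt4.

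Wnt5a, a ligand of the branch that signals without beta-catenin, had the opposite placement. Its level was 100.01, 102 and 96.3 CPM in the valve interstitial-like nuclei of pools 1, 2 and 3 against 11.4, 14.6 and 10.8 CPM in endothelial-like nuclei. The pools of each class lay close together and far from those of the other. Mesothelial-like nuclei were higher still, at 161 ± 32.1 CPM, and fibroblast-like nuclei followed at 41.7 ± 6.0 CPM, so Wnt5a was not restricted to the valve interstitium.

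Rnf43, the ligase that removes Frizzled receptors, was largely restricted to the interstitium. It was 137, 137 and 159 CPM in valve interstitial-like nuclei, a mean of 144 ± 12.9 CPM, and 4.90, 2.70 and 4.82 CPM in endothelial-like nuclei. Valve interstitial-like nuclei held 85.2% of its UMIs in the 9 classes, and the second class, macrophage-like nuclei, had 7.18 ± 3.12 CPM.

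Znrf3, the paralogue with the same enzymatic role, was broad. It measured 244, 221 and 256 CPM in valve interstitial-like nuclei, against 98.2, 102 and 106 CPM in the endothelial class. Cardiomyocyte-like nuclei had 248 ± 17.1 CPM, and their pools overlapped those of valve interstitial-like nuclei. Pool by pool the cardiomyocyte-like value was slightly the higher each time, at 251, 229 and 263 CPM. The mean in the remaining classes ran from 86.3 CPM in lymphatic endothelial-like nuclei to 182 CPM in smooth muscle-like nuclei, so the ligases differed in how far they were spread over the root.

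Axin2, the scaffold that feeds back on beta-catenin and is a common readout of it, was 65.2, 48.3 and 55.2 CPM in valve interstitial-like nuclei. In endothelial-like nuclei, which ranked second, it was 8.85, 12.1 and 9.64 CPM. Lef1, a DNA-binding partner of beta-catenin that is also its target, was 330, 316 and 373 CPM in valve interstitial-like nuclei, against 73.0, 65.8 and 60.8 CPM in the endothelial class, again the second class. All pools of the interstitial class stood above all pools of every other class for both genes.

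Sfrp1 and Sfrp2 encode secreted Frizzled-related proteins that bind Wnt ligands outside the cell. Sfrp1 was 127, 131 and 72.2 CPM in valve interstitial-like nuclei, against 122, 94.8 and 89.7 CPM in the endothelial class, and the pools overlapped. Without pool 2 the endothelial mean was the higher, at 106 CPM against 99.6 CPM. Its highest class was fibroblast-like, at 180 ± 25.0 CPM. Sfrp2 was 326, 406 and 111 CPM in valve interstitial-like nuclei, against 124, 103 and 67.5 CPM in the endothelial class, where the ranges overlapped but the interstitial value was the higher in each of the 3 pools. Pool 3 was the lowest pool for Sfrp2 in 8 of the 9 classes, the exception being pericyte-like nuclei.

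Rspo3, the R-spondin among the 10, measured 489, 363 and 451 CPM in valve interstitial-like nuclei, against 38.7, 39.8 and 43.8 CPM in the endothelial class. Cardiomyocyte-like nuclei were second, at 97.1 ± 16.1 CPM, and the pools of these 3 classes did not overlap. Valve interstitial-like nuclei held 49.8% of its UMIs in the 9 classes.

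Shares of nuclei with at least 1 UMI of a gene were compared after each nucleus was thinned to 1000 UMIs, because the classes differ in depth. The median UMI count per nucleus was 4805, 5049.5 and 3399 in the endothelial-like nuclei of pools 1, 2 and 3, 3992.5, 4096 and 2743 in valve interstitial-like nuclei, and 5422, 6553.5 and 4568 in cardiomyocyte-like nuclei, the class set beside them as background. Wnt9b was found in 1.88% ± 0.572 of thinned endothelial-like nuclei, in 1 of 1454 valve interstitial-like nuclei and in 0 of 2452 cardiomyocyte-like nuclei, where the upper limit set by a count of 0 is 0.122%. Unthinned, it was found in 4.51% ± 0.388 of endothelial-like nuclei (122 of 2725), in 4 of 1454 valve interstitial-like nuclei and in 7 of 2452 cardiomyocyte-like nuclei, or 0.317% ± 0.273. The Wnt4 share was 3.16% ± 0.668 in endothelial-like nuclei, 0.219% ± 0.0612 in valve interstitial-like nuclei and 0.266% ± 0.151 in the background class, and unthinned it was 8.93% ± 0.849, 1.44% ± 0.898 and 0.787% ± 0.351.

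The response genes showed the reverse order in these shares. Rnf43 was found in 10.4% ± 1.41 of thinned valve interstitial-like nuclei, 0.416% ± 0.137 of endothelial-like nuclei and 0.385% ± 0.384 of cardiomyocyte-like nuclei, so its endothelial share was near the background. The Lef1 share was 21.1% ± 2.36 in valve interstitial-like nuclei, 4.89% ± 0.826 in endothelial-like nuclei and 1.91% ± 0.535 in cardiomyocyte-like nuclei, which puts the endothelial share above background in every pool. Axin2 gave 5.15% ± 1.61, 1.02% ± 0.275 and 0.836% ± 0.666 in the same order, so its endothelial share as a whole did not stand clear of the background. Without thinning, the valve interstitial-like shares were 26.6% for Rnf43, 44.05% for Lef1 and 16.6% for Axin2, against 1.21%, 5.60% and 3.45% in cardiomyocyte-like nuclei.

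The classes were not uniform, and the genes parted along clusters within each. Clusters are called here by their leading gene, the one with the largest fold over other nuclei. The 10 genes had no part in forming the clusters. A link of Wnt9b and Wnt4 to 1 endothelial cluster and of Rnf43 to 1 interstitial cluster was known when they were chosen, and the cluster levels are given without a test.

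**Figure D2:**
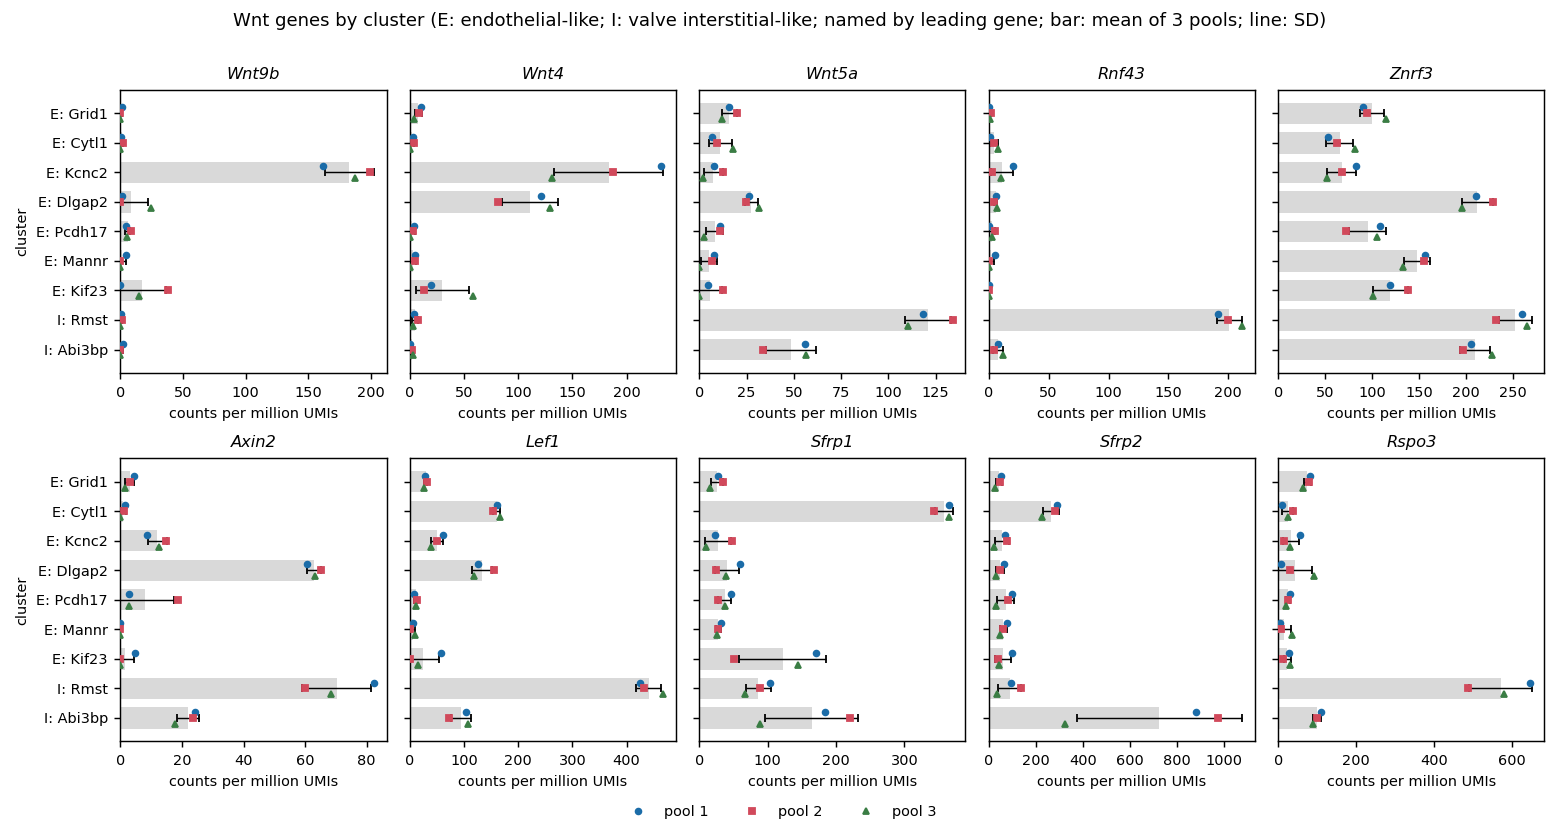
Each panel shows 1 gene, with CPM on a linear axis and the 7 endothelial-like (E) and 2 valve interstitial-like (I) clusters as rows; points are the 3 pools, bars their mean and lines the SD. Wnt9b sits in the Kcnc2 cluster, Wnt4 in the Kcnc2 and Dlgap2 clusters, and Rnf43, Lef1, Axin2 and Rspo3 in the Rmst cluster, whereas Sfrp2 peaks in the Abi3bp cluster.

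In the endothelium, 94.2% of all Wnt9b UMIs came from the Kcnc2 cluster of 428 nuclei. The Wnt9b level there was 162, 199.8 and 187 CPM in pools 1, 2 and 3. Wnt4 was 232, 187 and 131 CPM in that cluster and 121, 80.9 and 130 CPM in the Dlgap2 cluster of 250 nuclei, which had only 8 Wnt9b UMIs, 7 of them in pool 3. The other 5 clusters had Wnt4 means of 2.05 to 29.8 CPM, and the highest of these, in the Kif23 cluster of 50 nuclei, was 15.8 CPM without pool 3. The ligands thus shared 1 cluster, and Wnt4 was also present in another.

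Among the endothelial clusters, Axin2 was highest in the Dlgap2 cluster. That cluster held 59.3% of the endothelial-like Axin2 UMIs, at 60.5, 65.2 and 63.1 CPM, a level within the range of the interstitial Rmst cluster. Znrf3 was 212 ± 16.6 CPM there, above the 65.4 to 148 CPM of the other endothelial clusters. Lef1 was 133 ± 19.2 CPM in the Dlgap2 cluster and 160.0 ± 7.02 CPM in the Cytl1 cluster of 598 nuclei, which held 18.5% and 52.0% of the endothelial-like Lef1 UMIs. Rnf43 was low in every endothelial cluster, at 5.90 ± 1.28 CPM in the Dlgap2 cluster and 20.4, 2.26 and 10.4 CPM in the Kcnc2 cluster of pools 1, 2 and 3. The Kcnc2 cluster held 54.1% of the endothelial-like Rnf43 UMIs, but without pool 1 it held 7 of 25, or 28.0%, at a mean of 6.33 CPM. The response genes were thus not gathered in 1 endothelial cluster. The Kcnc2 cluster, where Wnt9b was highest, had 49.9 ± 10.5 CPM of Lef1 and 11.9 ± 3.05 CPM of Axin2.

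Sfrp1 and Sfrp2 were highest among the endothelial clusters in the Cytl1 cluster. Sfrp1 was 366, 343 and 365 CPM there in pools 1, 2 and 3, 74.7% of the endothelial-like UMIs of the gene, and Sfrp2 was 290, 280 and 228 CPM, or 57.9%. Both ligands were near 0 in that cluster, with 3 Wnt9b and 8 Wnt4 UMIs. Rspo3 had its highest mean among the endothelial clusters in the Grid1 cluster of 919 nuclei, at 75.0 ± 9.87 CPM, which held 54.9% of its endothelial-like UMIs. In pool 3 the Dlgap2 cluster was higher, at 91.1 CPM against 63.9 CPM, while it had 6.21 and 29.2 CPM in pools 1 and 2.

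The ligand-bearing endothelial clusters had more mitochondrial UMIs than the rest. The median share was 2.89% in the Kcnc2 cluster and 2.39% in the Dlgap2 cluster, against 0.786% to 1.32% in the other 5. The part of mitochondrial share in the levels of these clusters was not tested.

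The interstitium divided in a comparable way. In the Rmst cluster of 929 nuclei, Rnf43 was 191, 200 and 212 CPM, while the Abi3bp cluster of 525 nuclei had 7.31, 3.93 and 11.8 CPM. The Rmst cluster held 98.5% of the class's Rnf43 UMIs, 91.7% of Lef1, 93.2% of Rspo3, 88.4% of Axin2 and 85.4% of Wnt5a. In the Abi3bp cluster, Lef1 was 94.3 ± 18.7 CPM, below the 133 and 160.0 CPM of the Dlgap2 and Cytl1 endothelial clusters. Znrf3 differed least, at 253 ± 17.6 CPM in the Rmst cluster and 210 ± 16.0 CPM in the Abi3bp cluster.

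Sfrp2 ran the other way. It was 881, 976 and 323 CPM in the Abi3bp cluster of pools 1, 2 and 3 and 94.98, 135 and 35.8 CPM in the Rmst cluster. Pool 3 was the lowest in both clusters, and the clusters did not overlap. Sfrp1 was 164 ± 67.9 CPM in the Abi3bp cluster and 86.2 ± 18.5 CPM in the Rmst cluster, where the ranges overlapped but the Abi3bp value was the higher in each of the 3 pools.

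Genes whose levels were most like these patterns were named from the Pearson correlation of log2(CPM + 5) over 27 clusters of all classes, which share the same 3 libraries. Wnt9b was nearest to Gm38808 (r = 0.906) and Ramp3 (r = 0.903), with the natriuretic peptide Nppc at 0.872. Wnt4 was nearest to Clec4g (0.816) and Cyp26b1 (0.799), an enzyme that breaks down retinoic acid, followed by Wnt9b (0.778). Rnf43 was nearest to Gm30774 (0.925) and Galnt14 (0.885), while Sfrp2 was nearest to the collagen genes Col1a2 (0.856) and Col5a1 (0.841). Across the same clusters Rnf43 correlated with Rspo3 at 0.631, with Lef1 at 0.625 and with Axin2 at 0.526, and Sfrp2 with Sfrp1 at 0.670.

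The wider pathway was followed with 71 other Wnt pathway genes, which unlike the 10 were tested between the classes. Summed counts of the 9 classes were fitted with edgeR, with pool as a block and Benjamini-Hochberg adjustment over all 13997 genes. Of the 71, 50 passed the filter on low counts, 25 were higher in valve interstitial-like nuclei, 9 were higher in endothelial-like nuclei and 16 were not called. The median log2 difference of the 50 was 0.66, against -0.03 for all genes, of which 19.4% were called higher and 21.3% lower in valve interstitial-like nuclei. Genes that passed the filter through a high level in 1 class were bound to differ, and the count is a description of the list.

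**Figure D3:**
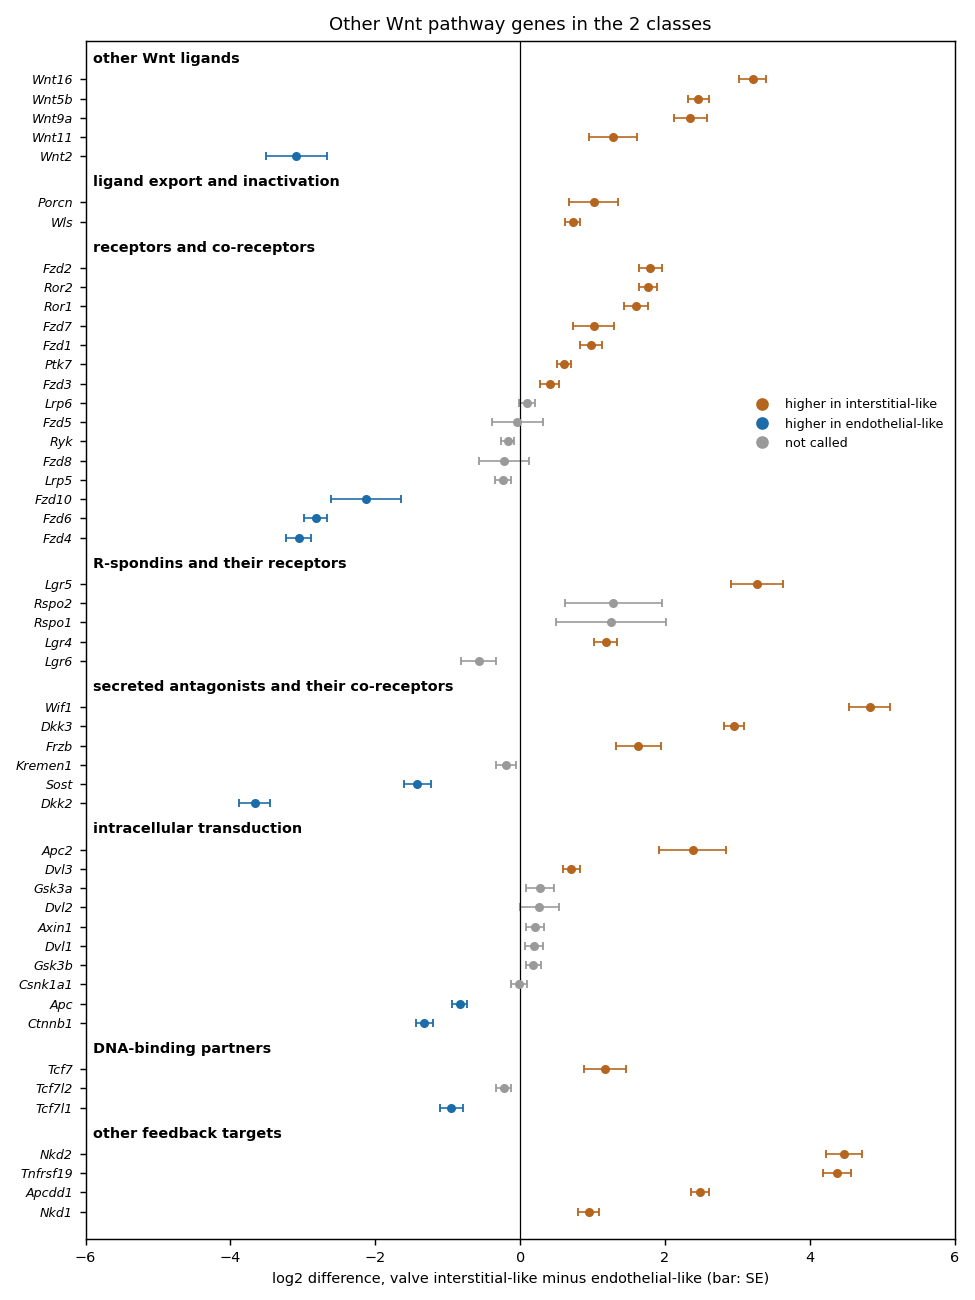
Each point is the log2 difference of a Wnt pathway gene, valve interstitial-like minus endothelial-like, with its SE, grouped by role; colour shows the call at an adjusted p of 0.05. All 4 tested feedback targets lie to the right, while the receptors Fzd4, Fzd6 and Fzd10 and the antagonist Dkk2 lie to the left.

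Among the other ligands 5 of 16 were tested, and 4 were higher in valve interstitial-like nuclei. Wnt16 was 147 ± 32.1 CPM there, against 16.1 ± 2.44 CPM in the endothelial class (log2 difference 3.21, SE 0.18, edgeR adjusted p = 8.74e-16). Wnt5b differed by 2.46 (SE 0.14), Wnt9a by 2.35 (SE 0.23) and Wnt11 by 1.28 (SE 0.33). Wnt2 was the ligand called in the other direction, at 1.63 ± 0.245 and 13.8 ± 2.57 CPM (log2 difference -3.09, SE 0.42). It had 9 interstitial and 211 endothelial UMIs, and with so few in the interstitial class no p is given. Wnt7a did not pass the filter, but all 52 of its UMIs in these classes were endothelial, and 96.2% of them lay in the Kcnc2 cluster.

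Wls, the carrier that brings Wnt proteins to the cell surface, was 404 ± 24.6 CPM in valve interstitial-like nuclei, against 248 ± 8.72 CPM in the endothelial class (log2 difference 0.72, SE 0.11, edgeR adjusted p = 1.02e-06). Porcn, which adds the lipid, was also higher there (1.01, SE 0.33, adjusted p = 0.0148), but that call was lost without pool 1 or without pool 2, at adjusted p = 0.124 and 0.0596.

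Receptors were called in both directions. Of 15 tested, 7 (46.7%) were higher in valve interstitial-like nuclei, 3 (20%) in endothelial-like nuclei and 5 were not called. Over all genes these shares were 19.4% and 21.3%, so the endothelial share was near that of all genes. Fzd2 (1.80, SE 0.16), Fzd1 (0.97, SE 0.15), Fzd7 (1.01, SE 0.28) and Fzd3 (0.41, SE 0.13) were higher in the interstitium, together with Ror2 (1.77, SE 0.13), Ror1 (1.60, SE 0.17) and Ptk7 (0.60, SE 0.10), which serve signalling without beta-catenin. Fzd3 lost its call on leaving out any 1 pool (adjusted p = 0.13, 0.0535 and 0.088), and Fzd7 without pool 1 or pool 2 (0.0622 and 0.103). Fzd4 was 83.8 ± 5.60 CPM in endothelial-like nuclei, against 9.82 ± 1.14 CPM in the interstitial class (log2 difference -3.06, SE 0.17), Fzd6 178 ± 5.8 and 24.1 ± 4.08 CPM (-2.82, SE 0.16). Fzd10 differed by -2.13 (SE 0.48), and 79.5% of its endothelial UMIs lay in the Dlgap2 cluster. The co-receptors Lrp5 (log2 difference -0.24, SE 0.11) and Lrp6 (0.10, SE 0.11) were not called.

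Of the 3 R-spondin receptors, Lgr4 and Lgr5 were higher in valve interstitial-like nuclei, where Rspo3 was also highest, and Lgr6 was not called, at 22.2 ± 6.20 CPM there and 34.3 ± 4.46 CPM in the endothelial class (log2 difference -0.57, SE 0.24, edgeR adjusted p = 0.0555). Lgr5 was 33.0 ± 3.99 CPM in the interstitial class, against 3.41 ± 1.11 CPM in the endothelial class (log2 difference 3.27, SE 0.36). It was low in the endothelial class, with 48 UMIs, so no p is given. Lgr4 was 187 ± 29.7 and 82.0 ± 10.1 CPM (1.18, SE 0.16), but it was as high in cardiomyocyte-like nuclei, at 189 ± 11.8 CPM. Rspo1 and Rspo2 were not called between these classes, and both were highest in mesothelial-like nuclei, at 259 and 327 CPM. Mesothelial-like nuclei are those of the outer surface of the heart and vessels.

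Different secreted antagonists were higher in each class. Wif1 was 105 ± 35.9 CPM in valve interstitial-like nuclei, against 4.16 ± 3.15 CPM in the endothelial class (log2 difference 4.83, SE 0.28), Dkk3 403 ± 79.1 and 52.8 ± 7.90 CPM (2.96, SE 0.14). Frzb was higher in the interstitium by 1.63 (SE 0.31). Dkk2 was 188 ± 30.6 CPM in endothelial-like nuclei, against 15.2 ± 3.30 CPM in the interstitial class (-3.67, SE 0.22), and Sost differed by -1.42 (SE 0.19). Within the endothelium, Dkk2 was highest in the Mannr cluster (633 ± 83.9 CPM) and the Cytl1 cluster (391 ± 63.2 CPM), the latter being the cluster of Sfrp1 and Sfrp2.

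Other feedback targets of the pathway were all higher in valve interstitial-like nuclei where they could be tested, in 4 of 4. Nkd2, an inhibitor of Dishevelled, was 73.4 ± 9.22 CPM there, against 3.18 ± 0.613 CPM in the endothelial class (log2 difference 4.47, SE 0.25). It was low in the endothelial class, with 47 UMIs, so no p is given. Tnfrsf19 was higher by 4.38 (SE 0.19), the membrane inhibitor Apcdd1 by 2.48 (SE 0.12) and Nkd1 by 0.95 (SE 0.14). The remaining target, Sp5, did not pass the filter and lay the other way. It had 7 UMIs in valve interstitial-like and 36 in endothelial-like nuclei (1.16 ± 0.342 and 2.50 ± 0.955 CPM). In the endothelium Nkd1 was 102 ± 21.3 CPM in the Kcnc2 cluster and 80.1 ± 9.62 CPM in the Dlgap2 cluster, and Apcdd1 was 91.5 ± 19.9 and 104 ± 12.05 CPM. The pools of both clusters overlapped those of the interstitial Rmst cluster for Nkd1 (92.3 ± 8.79 CPM) and lay below them for Apcdd1 (252 ± 10.8 CPM).

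Of the intracellular components 6 of 10 were not called, among them Gsk3b and Axin1, while 2 (20%) were higher in each class. These shares are near the 19.4% and 21.3% of all genes, so nothing is read from the count. Apc2 (log2 difference 2.38, SE 0.46, from 32 and 15 UMIs) and Dvl3 (0.71, SE 0.11) were higher in valve interstitial-like nuclei. Ctnnb1, which encodes beta-catenin and also serves cell junctions, was 319 ± 38.2 CPM in endothelial-like nuclei, against 126 ± 24.1 CPM in the interstitial class (log2 difference -1.33, SE 0.12), and Apc differed by -0.84 (SE 0.11). Among DNA-binding partners, Tcf7 was higher in the interstitium (1.17, SE 0.29) and Tcf7l1, often a repressor, in the endothelium (-0.95, SE 0.16).

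Matched nuclei of 1 class were then compared, to see which genes accompany a ligand or a response gene within it. Each nucleus with a UMI of the selecting gene was paired with a nucleus of the same pool and class without one and with the nearest UMI total. Sums over these nuclei were tested with edgeR, with pool as a block, the selecting gene left out, and adjustment over all genes tested. The comparisons share nuclei with one another, and the same pairing was repeated inside clusters. Because clusters that hold both genes of a pair give a difference even if nuclei within them do not differ, the outcome within clusters is given for each gene named as called, where it could be tested there. A gene close to 0 in 1 set of nuclei passes the filter on low counts through the other set alone and is bound to differ, so such genes are given by their UMIs, with no p.

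**Figure D4:**
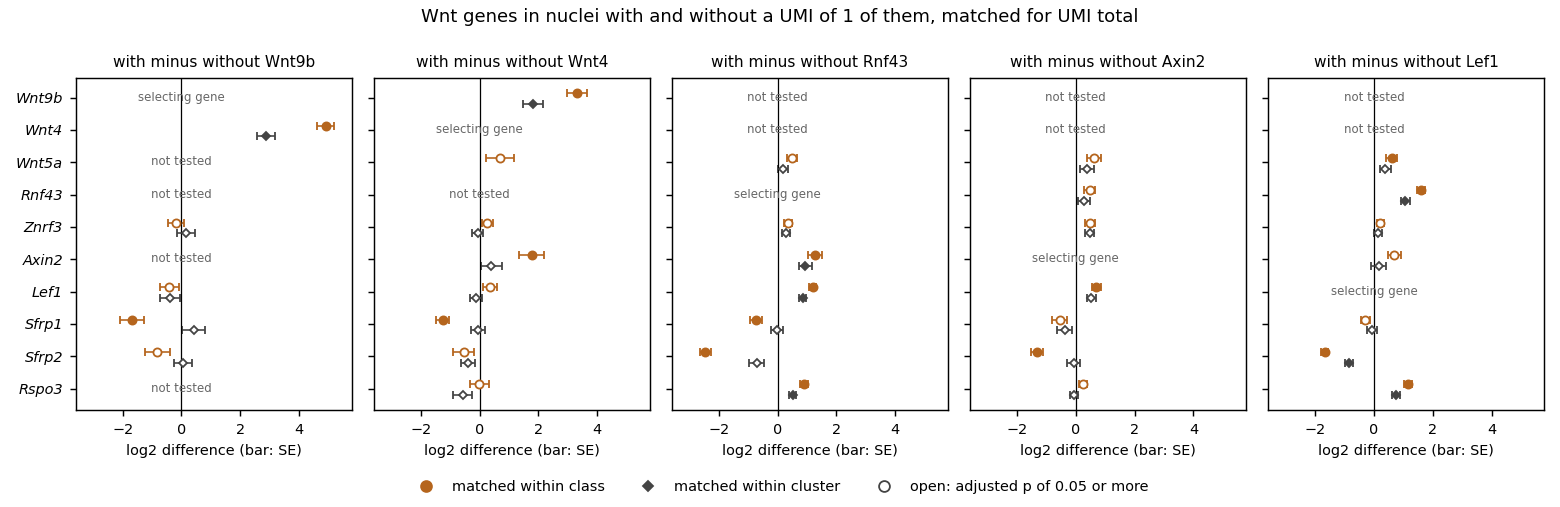
Each panel is 1 comparison of matched nuclei, with the log2 difference of the other genes (nuclei with minus without a UMI of the gene named above the panel) and its SE; circles match within the class, diamonds within clusters, and open symbols have an adjusted p of 0.05 or more. Wnt9b and Wnt4 lie to the right in each other's panels, and Lef1, Axin2 and Rspo3 lie to the right in the Rnf43 panel under both pairings.

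Endothelial-like nuclei with a Wnt9b UMI numbered 56, 37 and 29 in pools 1, 2 and 3. Wnt4 was 446, 409 and 365 CPM in them, against 13.8, 8.69 and 24.7 CPM in their matched nuclei. The log2 difference was 4.90 (SE 0.30), and 2.87 (SE 0.31) within clusters. Wnt4 was low in the matched nuclei, and a cluster shared by both ligands was known when they were chosen, so no p is given. By nucleus, 69 of the 122 with Wnt9b also had a Wnt4 UMI, against 11 of the 122 without, and against 21 of the 122 without when paired within clusters. The summed Wnt4 levels of the pools did not overlap between nuclei with and without Wnt9b.

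The background of that comparison was large, with 14.6% of 6721 genes called (8.51% higher and 6.1% lower), and 5.52% within clusters. Of the 5 other members tested, Wnt4 was higher and Sfrp1 lower. Sfrp1 was 47.3, 75.4 and 6.18 CPM in nuclei with Wnt9b and 203, 84.0 and 223 CPM without (log2 difference -1.68, SE 0.42, edgeR adjusted p = 0.00952). Within clusters the sign turned (0.42, SE 0.39, adjusted p = 0.669), and the call was also lost without pool 1 (adjusted p = 0.0758), with DESeq2 and with at least 2 UMIs of Wnt9b. Lef1 (-0.41, SE 0.31), Znrf3 (-0.19, SE 0.27) and Sfrp2 (-0.82, SE 0.43) were not called. Rnf43 did not pass the filter, with 20 UMIs in nuclei with Wnt9b and 0 without. Those 20 UMIs lay in 7 nuclei, of which pools 1, 2 and 3 gave 5, 1 and 1, at 33.5, 2.90 and 12.4 CPM. Of the nuclei with at most 2% mitochondrial UMIs, 0 of 35 with Wnt9b and 0 of 35 without had Rnf43.

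Other pathway genes moved with Wnt9b in both directions, 5 higher and 5 lower among the 30 tested. The ligand Wnt7a had 38 UMIs in nuclei with Wnt9b and 0 without, at least 12.7-fold higher in CPM when the 0 is set to 3 UMIs over the pools together, and it is 1 of the 5 only through the nuclei with Wnt9b. With DESeq2, 3 of the 10 were called (Wnt7a, Ror1 and Tcf7l1). Dkk2 was higher by 1.08 (SE 0.24), and by 1.01 (SE 0.25, adjusted p = 0.0268) within clusters, but its call was lost in 4 of 13 alternatives, among them without pool 2 (0.73, adjusted p = 0.0973) and with DESeq2. Wnt2 (1.90, SE 0.50), Nkd1 (1.37, SE 0.31) and Apcdd1 (1.24, SE 0.30) were higher, and within clusters none of them was called, with Wnt2 at 0.08, Nkd1 at 0.39 and Apcdd1 turned to -0.12. Without pool 2, Nkd1 and Apcdd1 were not called either (adjusted p = 0.0597 and 0.11). Ror1 (-1.90, SE 0.22) and Tcf7l1 (-1.56, SE 0.20) were lower under both pairings, and Ror2 (-1.12), Lgr4 (-1.06) and Fzd4 (-0.87) across the class but not within clusters. These 3 calls were weak, lost in 6, 6 and 8 of 13 alternatives. Ror2 was not called without pool 1 (adjusted p = 0.223), Lgr4 without pool 2 or pool 3 (0.19 and 0.0534) and Fzd4 without any 1 of pools 1, 2 and 3 (0.276, 0.112 and 0.0559).

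The 5 largest rises overall were of Wnt7a, Nppc, Pthlh, Adamts8 and Mapt. Nppc, which encodes C-type natriuretic peptide, was 187, 293 and 179 CPM in nuclei with Wnt9b, from 225 UMIs, against 2 UMIs in the matched nuclei, both in pool 1. Pthlh, encoding parathyroid hormone-related protein, had 392 UMIs with and 5 without, the protease gene Adamts8 had 319 and 4, and Mapt, encoding the microtubule protein tau, had 91 and 2. All 5 thus had 0 to 5 UMIs in the matched nuclei. The largest falls were of Ebf2, Gkn3, Abca8a, Cacnb4 and Prdm6, with 4 to 14 UMIs with Wnt9b and 64 to 171 UMIs without, and none of them passed the filter within clusters. Ebf2 and Abca8a are in the fibroblast marker list, whose sum over 10 markers was 1004 to 1073 CPM with and 663 to 1150 CPM without Wnt9b. The 11 valve interstitial markers summed to 1076 to 1352 CPM with Wnt9b and 434 to 792 CPM without, and to 804 to 983 CPM without when paired within clusters, with no overlap either way. The 7 smooth muscle markers were lower with Wnt9b, at 192 to 394 CPM against 458 to 668 CPM, and the 12 endothelial markers higher, at 7970 to 9007 CPM against 6551 to 6792 CPM. The part of such RNA in the differences with Wnt9b, those of Rnf43, Nkd1 and Apcdd1 included, was not tested.

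Nuclei with a Wnt9b UMI had more mitochondrial UMIs, with medians of 3.61%, 3.21% and 2.59% against 1.44%, 1.40% and 1.86% in their matched nuclei. Nuclei with Wnt4 showed the same, with 2.87%, 3.09% and 2.39% against 1.55%, 1.40% and 1.09%. With nuclei limited to 2% mitochondrial UMIs, a limit added after this was seen, 191 of 2935 genes tested (6.51%) were called for Wnt4, from 44, 20 and 24 pairs, in place of 740 of 8758. The part of mitochondrial share in these comparisons was not tested beyond that.

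Endothelial-like nuclei with a Wnt4 UMI were more numerous, at 121, 71 and 54. Wnt9b was 119, 265 and 265 CPM in them and 23.6, 8.55 and 22.2 CPM without (log2 difference 3.31, SE 0.34), and the difference was 1.82 (SE 0.35) within clusters. A Wnt9b UMI was found in 69 of 246 nuclei with Wnt4, against 8 without, or 21 without when paired within clusters. A cluster shared by both ligands was known beforehand, so no p is given. The groups did not overlap. Since 8.45% of 8758 genes were called (4.24% higher and 4.21% lower), and 2.79% within clusters, this was 1 of 740 called genes.

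Axin2 was also higher in nuclei with Wnt4. It was 34.1, 31.5 and 36.8 CPM with Wnt4 and 5.13, 13.7 and 14.8 CPM without (log2 difference 1.77, SE 0.42). Axin2 was low without Wnt4 and entered the test largely through the nuclei with Wnt4, so no p is given for this difference. Within clusters the difference was 0.39 (SE 0.36, adjusted p = 0.812), so no association between nuclei of 1 cluster was called. The class-wide edgeR call was also lost without pool 1 (adjusted p = 0.238), with DESeq2 and with at least 2 Wnt4 UMIs. By nucleus, 45 of 246 with Wnt4 had an Axin2 UMI, against 13 of 246 without, and against 32 of 246 without when paired within clusters. Markers of other cell types moved with Wnt4 too. The 10 fibroblast markers summed to 1245 to 1483 CPM with and 596 to 658 CPM without, and the 11 valve interstitial markers to 924 to 1251 CPM with and 538 to 922 CPM without. Within clusters the matched nuclei had 998 to 1218 and 723 to 838 CPM, still without overlap, and the part of such RNA in the Axin2 and other differences was not tested.

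Sfrp1 was 62.2, 61.4 and 25.8 CPM with Wnt4 and 161, 101 and 104 CPM without (log2 difference -1.26, SE 0.23, edgeR adjusted p = 0.00361), and the difference was -0.04 (SE 0.24, adjusted p = 0.982) within clusters; without pool 1 its adjusted p was 0.0572. Znrf3, Lef1, Sfrp2, Rspo3 and Wnt5a were not called. Of 34 other pathway genes tested, 5 were higher and 2 lower. Wnt7a had 50 UMIs with Wnt4 and 0 without, at least 16.3-fold higher on the same floor, and is 1 of the 5 only through the nuclei with Wnt4. DESeq2 called 4 of the 7, all but Fzd4, Fzd10 and Apc. Fzd10 (2.19, SE 0.53), Apcdd1 (1.52, SE 0.23), Nkd1 (1.41, SE 0.24) and Apc (0.53, SE 0.14) were higher and Fzd4 (-1.22, SE 0.28) and Tcf7l1 (-1.04, SE 0.16) lower, and within clusters none of these 6 was called. Fzd10 was not called without pool 1 (adjusted p = 0.271), nor Apc without any 1 of pools 1, 2 and 3 (0.0847, 0.0662 and 0.214). Dkk2, not called in the class-wide pairing, was higher within clusters by 1.63 (SE 0.19, edgeR adjusted p = 3.83e-05). Depth was less well matched in those pairs, with median UMI totals of 6838, 6950 and 3984.5 with Wnt4 against 6440, 6511 and 3543.5 without. The part of depth in this call was not tested.

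The largest rises with Wnt4 besides Wnt7a were Cntnap5a, with 356 UMIs in nuclei with Wnt4 and 2 in the matched nuclei, Dlgap2 with 829 and 17, Rassf5 with 75 and 2, and Coch with 160 and 5. Within clusters Cntnap5a, Dlgap2 and Coch were not called. The largest falls were Ntng1, Fam135b, Mannr, Arfgef3 and Trpc5, with 3 to 12 UMIs with Wnt4 and 35 to 94 UMIs without, and none of them passed the filter within clusters.

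In the interstitium, nuclei with a Rnf43 UMI numbered 189, 93 and 110 in pools 1, 2 and 3, with median UMI totals of 4886, 4658 and 3335.5 against 4870, 4687 and 3353 in their matched nuclei. Their median mitochondrial share was lower in each pool, at 0.683%, 1.28% and 0.310% against 0.884%, 1.84% and 0.425%. The 11 valve interstitial markers summed to 12704 to 13037 CPM with Rnf43 and 9347 to 12097 CPM without. The part of either in the results was not tested. The response genes were higher in them together. Lef1 was 503, 616 and 642 CPM with Rnf43 and 244, 235 and 294 CPM without (log2 difference 1.19, SE 0.12, edgeR adjusted p = 1.48e-07). Axin2 was 108, 70.5 and 93.1 CPM with and 39.2, 39.5 and 38.1 CPM without (1.27, SE 0.22, adjusted p = 0.000351). Neither gene's groups overlapped.

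These differences held inside clusters, where the log2 difference was 0.85 for Lef1 (SE 0.12, edgeR adjusted p = 0.000166) and 0.93 for Axin2 (SE 0.22, adjusted p = 0.0238). The Axin2 call was lost without pool 1, at adjusted p = 0.107. By nucleus in the class-wide pairing, 273 of 392 with Rnf43 had a Lef1 UMI against 176 of 392 without, and 117 had an Axin2 UMI against 64. When paired within clusters, 219 of the 392 without had a Lef1 UMI and 76 an Axin2 UMI. Rspo3 was 781, 616 and 574 CPM with Rnf43 and 362, 289 and 447 CPM without (log2 difference 0.89, SE 0.13, adjusted p = 3.59e-05), and 0.51 (SE 0.12, adjusted p = 0.031) within clusters. Its call was lost without pool 2 (adjusted p = 0.0892) and without the pool block. DESeq2 called Lef1, Rspo3 and Sfrp2, and gave no adjusted p for Axin2.

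Sfrp2 was lower where Rnf43 was detected, at 59.1, 131 and 27.7 CPM against 519, 423 and 165 CPM (log2 difference -2.46, SE 0.20, edgeR adjusted p = 7.59e-10). Inside clusters the difference was -0.72 (SE 0.25, adjusted p = 0.227), in the same direction and not called. Sfrp1 was lower across the class (log2 difference -0.74, SE 0.21, adjusted p = 0.0261), in 2 of 3 pools, and 8 of 14 alternatives did not call it, among them the pairing within clusters (-0.03) and leaving out pool 1 or pool 2 (adjusted p = 0.104 and 0.664). Wnt5a (0.49, SE 0.17, adjusted p = 0.105) and the sister ligase Znrf3 (0.35, SE 0.14, adjusted p = 0.163) were not called. In this comparison 5.97% of 7594 genes were called (2.92% higher and 3.04% lower), and 5 of the 7 members tested. Within clusters 1.41% of genes were called, and 3 members. The link of Rnf43 to a cluster was known when the members were chosen, so nothing is read from the class-wide count.

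Of 34 other pathway genes tested with Rnf43, 10 were higher and Fzd6 was lower (-1.93, SE 0.41). Wnt16 was 205, 230.3 and 342 CPM with Rnf43 and 94.9, 85.3 and 112 CPM without (log2 difference 1.37, SE 0.15, edgeR adjusted p = 4.54e-07), and Wif1 208, 201 and 126 CPM against 110.4, 131 and 35.5 CPM (0.97, SE 0.17, adjusted p = 0.000417). Both stayed called within clusters, at 0.87 and 0.70, but the Wif1 call was lost without pool 2 (adjusted p = 0.0503) and without the pool block. Nkd1 (0.94), Wnt5b (0.88), Tnfrsf19 (0.79), Nkd2 (0.77), Ror1 (0.66), Lgr4 (0.62), Tcf7l2 (0.56) and Apcdd1 (0.55) were higher across the class and not called within clusters, where Fzd6 was not tested. Without pool 2, none of these 8 and not Fzd6 was called, with adjusted p of 0.069 for Ror1, 0.0828 for Wnt5b, 0.0892 for Tcf7l2, 0.113 for Fzd6, 0.173 for Apcdd1, 0.179 for Lgr4, 0.189 for Tnfrsf19, 0.29 for Nkd2 and 0.362 for Nkd1. Without pool 1, Wnt5b, Tcf7l2, Nkd2 and Apcdd1 lost their calls (0.112, 0.169, 0.254 and 0.112), and Tcf7l2 also without pool 3 (0.0578). DESeq2 called 3 of the 11 (Wnt16, Wif1 and Ror1), did not call 5 and gave no adjusted p for Fzd6, Nkd1 and Nkd2. The 11 called genes were 4 feedback genes, 2 ligands, an antagonist, 3 receptors and a DNA-binding partner.

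The largest rises with Rnf43 were of Dync1i1 (2.53, SE 0.33), Zfp804b (2.31, SE 0.26), Cyp4b1 (2.30, SE 0.34), the noncoding RNA Rmst (2.10, SE 0.16) and Tubb3 (2.05, SE 0.41), and all but Tubb3 were called within clusters. Dync1i1 and Tubb3 were not called without pool 2 (adjusted p = 0.0892 and 0.0887). Falls were largest for Cemip (-3.42), Itgbl1 (-3.27), Gabrb2 (-2.73), Aspn (-2.67) and Ism1 (-2.62). Within clusters Itgbl1 (-0.51, adjusted p = 0.743) and Aspn (-0.64, adjusted p = 0.368) were not called and the other 3 were not tested, and Gabrb2 was not called without pool 2 (adjusted p = 0.173). Cemip degrades hyaluronan, and Aspn encodes a small leucine-rich proteoglycan of the matrix. The count of calls depended on pools, with 202 without pool 1 and 103 without pool 2 against 453.

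Nuclei with an Axin2 UMI numbered 129, 63 and 55, and few genes were called between them and their matched nuclei. In all, 0.642% of 6226 genes were called (0.257% higher and 0.385% lower), a total of 40, and 5 genes or 0.0805% within clusters. Lef1 was 489, 450 and 651 CPM with Axin2 and 313, 310 and 329 CPM without (log2 difference 0.70, SE 0.15, edgeR adjusted p = 0.0163), and 0.53 (SE 0.15, adjusted p = 0.355) within clusters. Sfrp2 was 103, 250.4 and 69.9 CPM with and 413, 425 and 113 CPM without (-1.32, SE 0.21, adjusted p = 0.00121), and -0.07 within clusters. Both calls were lost on leaving out any 1 pool, with adjusted p of 0.0713 to 0.708 for Lef1 and 0.197 to 0.615 for Sfrp2.

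Rnf43 was 193 ± 43.6 CPM with Axin2 and 144 ± 27.1 CPM without (log2 difference 0.47, SE 0.19, edgeR adjusted p = 0.584), and Znrf3 and Rspo3 were not called either. EdgeR called 0 of the 30 other pathway genes tested, 9 of which had an unadjusted p under 0.05, and DESeq2 called 0 but gave no adjusted p for 26 of the 30. The largest rises were of Gabrg3 (2.18, SE 0.32), Egfem1 (1.86, SE 0.33) and Nrxn3 (1.33, SE 0.27), and the largest falls of Itgbl1 (-1.74), Myom1 (-1.61) and Ryr2 (-1.58). Within clusters Gabrg3 (2.00) and Ryr2 (-1.23) were called, Egfem1, Nrxn3 and Myom1 were not, and Itgbl1 lay at 0.23 (adjusted p = 0.999). None of these 6 was called without pool 2 (adjusted p of 0.513 to 0.888) or without pool 3 (0.164 to 0.298), nor Egfem1 and Nrxn3 without pool 1 (0.337 and 0.356). Myom1 and Ryr2 are cardiomyocyte genes, and the 8 cardiomyocyte markers summed to 269 to 935 CPM with Axin2 and 571 to 1506 CPM without, with overlap. Without overlap, the 7 smooth muscle markers were at 495 to 731 CPM with and 765 to 959.5 CPM without, and the part of such RNA was not tested. The count of calls was 0 without pool 2 and 0 without pool 3, with 344 and 444 genes at an unadjusted p under 0.05.

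Nuclei with a Lef1 UMI were the most numerous, at 302, 162 and 181, and could not be matched fully in depth. Their median UMI totals were 4554, 4938.5 and 3139 against 3876.5, 3859 and 2888 in the nuclei without, so the nuclei with Lef1 were deeper in every pool. Within clusters 203, 107 and 160 pairs could be made, and the gap was wider, at 5352, 5678 and 3284 against 3994, 4040 and 2731.5. Rnf43 was 196, 206 and 259 CPM with Lef1 and 69.5, 65.7 and 82.7 CPM without (log2 difference 1.59, SE 0.14, edgeR adjusted p = 1.49e-09), and 1.07 (SE 0.15, adjusted p = 0.00135) within clusters. Rspo3 was 719, 486 and 573 CPM with and 234, 242 and 358 CPM without (1.15, SE 0.12, adjusted p = 8.01e-08), and 0.74 (SE 0.14, adjusted p = 0.011) within clusters. Neither gene's groups overlapped.

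Sfrp2 was again lower, at 157, 207 and 35.4 CPM with Lef1 and 531, 536 and 192 CPM without (log2 difference -1.68, SE 0.13, edgeR adjusted p = 3.1e-10), and here it was also called within clusters (-0.85, SE 0.14, adjusted p = 0.00499), in the pairs with the wider gap in depth. The fibroblast markers summed to 2412 to 4462 CPM with Lef1 and 1877 to 2749 CPM without (means of 3537 and 2305 CPM), and to means of 3937 and 2599 CPM within clusters. The valve interstitial markers had means of 12229 CPM with and 10779 CPM without, and the ranges of both lists overlapped. The part of depth and of such RNA in the differences with Lef1 was not tested. Sfrp2 was lower in 3 of 3 pools in each of the Rnf43, Axin2 and Lef1 comparisons, which share nuclei. Wnt5a was 131, 129 and 91.0 CPM with and 67.9, 71.7 and 110 CPM without (0.60, SE 0.18, adjusted p = 0.0366), higher in 2 pools and lower in pool 3, and 9 of 14 alternatives did not call it, among them leaving out pool 1 or pool 2 (adjusted p = 0.683 and 0.185). Axin2 missed the threshold (0.69, SE 0.22, adjusted p = 0.0647). The background was 6.45% of 9220 genes called (3.37% higher and 3.08% lower), and 1.72% within clusters.

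Of 40 other pathway genes tested with Lef1, 11 were higher and 2 lower. Wif1 (1.60, SE 0.22) and Wnt16 (1.44, SE 0.14) had the largest rises and were the only 2 called within clusters, at 1.28 and 1.00, where Fzd6 and Frzb were not tested. DESeq2 called 4 of the 13 (Wnt16, Ror1, Apcdd1 and Tnfrsf19), did not call 6, Wif1 among them, and gave no adjusted p for Fzd6, Frzb and Dkk2. The Wif1 call was also lost without the pool block. Dkk2 (1.28), Tnfrsf19 (1.11), Nkd2 (0.79), Apcdd1 (0.77), Wnt5b (0.65), Nkd1 (0.63), Ror1 (0.56), Tcf7l2 (0.42) and Ror2 (0.38) were higher across the class, and Fzd6 (-1.75) and Frzb (-1.32) were lower. Calls were lost without pool 1 for Ror1, Ror2, Tcf7l2 and Nkd1 (adjusted p = 0.0983, 0.408, 0.252 and 0.0615), without pool 2 for Ror2, Frzb and Dkk2 (0.118, 0.215 and 0.0732), and without pool 3 for Wnt5b, Frzb and Nkd1 (0.0676, 0.09 and 0.131). The largest changes of all genes were rises of Frmpd4 (2.13), Sez6l (2.11), Syt1 (1.98) and Tnfrsf21 (1.98) and falls of Col8a1 (-2.85), Cemip (-2.71), Ereg (-2.24) and Thbs4 (-2.14). All 8 were called within clusters except Sez6l and Thbs4, which were not tested there.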

How the data were processed

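RNA was measured in single nuclei of 3 pools, from the RNA part of 10x Genomics Multiome libraries; the chromatin part was not analysed here. Per the file headers, Cell Ranger 7.1.0 made the deposited matrices, whose values are unnormalised UMI counts of genes in nuclei, while the submitters' processing notes name Cell Ranger 7.0.1 and 7.1.0 and the build GRCm39. Whether intronic reads were counted is not given in the sources used here. All values were whole, and totals varied from nucleus to nucleus. The pools held 49918251, 25341316 and 21254247 UMIs in 10580, 5949 and 4611 deposited nuclei.

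Nuclei under 1000 UMIs or 300 genes were dropped, as were those with over 5% of UMIs in 13 mitochondrial genes. The automatic threshold of Scrublet (scanpy 1.11.5) marked 0 nuclei in each pool, so the highest scores, 0.8% per 1000 deposited nuclei, were marked instead (597, 154 and 138). Counts scaled to 10000, 2000 variable genes, 30 components and 15 neighbours gave 28 clusters at a Leiden resolution of 1. The 10 genes, 71 further Wnt pathway genes, and cell cycle, sex and mitochondrial genes were kept out. Clusters were named by the best of 21 marker lists, given at least 3 markers found in 10% of their nuclei and raised 2-fold at a pseudocount of 5 CPM. Names are rebuilt, hence "like", and 1536 nuclei stayed unnamed.

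Counts summed per pool and class (9 classes holding 20 or more nuclei per pool, 27 sums), or per pool and matched set, were tested with edgeR 4.0.16 (R 4.3.3), quasi-likelihood, TMM, filterByExpr, pool as a block because the sums of a pool come from 1 library, and Benjamini-Hochberg adjustment at 0.05. The labels do not say that pools share no litter, so p-values measure the spread between these pools. The tests were tried on simulated data. Pairs needed 10 nuclei per pool. Besides the 10 genes, any of the 71 could be named, and in matched nuclei up to 5 genes by largest positive and 5 by largest negative difference, if called and moving alike in 3 of 3 pools. For Wnt9b, Wnt4, Rnf43 and Sfrp2, genes of like pattern were taken from clusters of at least 50 nuclei and genes reaching 20 CPM in 1 cluster. Floors set a count of 0 to 3 UMIs and cover counting error only. The members and lists were chosen with earlier results of these data known. Promoters are from RefSeq on GRCm38.p6. No gene coordinates on GRCm39 were used.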

Additional observations from a re-analysis of the deposited data

How the results depend on the processing

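Levels of the 10 genes kept the same higher class for 8 interstitial genes under every alternative, except that leaving out 1 pool gave 7 to 8, as Sfrp1 turned without pool 2. Without a mitochondrial limit 6 of 20 levels moved beyond 1 SD, among them Wnt5a (103 CPM in interstitial-like nuclei) and, in endothelial-like nuclei, Znrf3 (97.4), Axin2 (12.8) and Rspo3 (37.6), and Rspo3 (44.2) also with doublets kept. The 34 called pathway genes became 31 to 34 on leaving out a pool. Counts of called genes in matched nuclei moved more, and the cause was not tested. For Wnt9b, 982 became 2199 without a mitochondrial limit, 392 with DESeq2, 360 within clusters and 598 to 1171 on leaving out 1 pool. For Wnt4, 740 became 1950 without a mitochondrial limit, 191 of 2935 tested at 2% mitochondrial UMIs, 354 with DESeq2 and 242 within clusters. For Rnf43, 453 became 117 with DESeq2, 68 without the pool as replicate block, 106 within clusters, 266 with at least 2 UMIs, 237 at 2% mitochondrial UMIs and 103 to 485 on leaving out 1 pool. For Axin2, 40 became 12 with 500 UMIs, 82 without a mitochondrial limit, 18 with doublets kept, 72 and 82 at resolutions of 0.5 and 2, 12 with DESeq2, 74 with no filter on low counts, 0 without the replicate block (219 at an unadjusted p under 0.05), 5 within clusters, 8 at 2% mitochondrial UMIs and 0 to 39 on leaving out 1 pool. For Lef1, 595 became 170 with DESeq2, 92 without the replicate block, 143 within clusters and 328 to 658 on leaving out 1 pool. The direction turned within clusters for Sfrp1 (0.42) and Apcdd1 (-0.12) with Wnt9b and for Itgbl1 (0.23) with Axin2. At least 2 UMIs for Axin2 and 2% mitochondrial UMIs for Wnt9b were not run, having fewer than 10 pairs in a pool. Samples of a pool are paired by their library, so the block is the main fit. The levels rest on 502 Wnt9b UMIs in endothelial-like nuclei and 329 Axin2 UMIs in valve interstitial-like nuclei, and the part of depth was not tested.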

Other observations

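Wnt pathway genes of the list were highest outside the valve endothelium and interstitium in several cases, given here as levels without a test. Ror1, a receptor of Wnt5a, was 2210, 1914 and 2190 CPM in the smooth muscle-like nuclei of pools 1, 2 and 3, against 592 ± 80.8 CPM in valve interstitial-like nuclei. Smooth muscle-like nuclei also had the highest mean of the R-spondin receptor Lgr6 (399 ± 36.0 CPM) and of the antagonist Sost (149 ± 36.5 CPM). Rspo1 was 269, 262 and 247 CPM and Rspo2 388, 395 and 198 CPM in mesothelial-like nuclei, where Wnt5a was highest too. Fzd6 reached 345 ± 65.5 CPM in lymphatic endothelial-like nuclei, and Wnt5b 196 ± 65.9 CPM in pericyte-like nuclei, which were few.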
